A study of Mus musculus with 15 samples.

Results

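Reprogrammed hepatocytes were compared with hepatocytes from the same kind of injured mouse liver by ATAC-seq, an assay in which a transposase cuts open chromatin and so marks accessible DNA. The comparison rested on 6 of the 15 libraries of the study, 3 of reprogrammed cells and 3 of DDC hepatocytes, taken by their labels. The reprogrammed cells and the hepatocytes both came from mice given DDC (3,5-diethoxycarbonyl-1,4-dihydrocollidine), which injures the bile ducts. The other 9 libraries, 3 each of DDC biliary cells, untreated biliary cells and untreated hepatocytes, gave levels to set beside the pair; the untreated groups were also compared with each other, and all 15 libraries entered 1 alternative fit. Cells were sorted straight from liver and not cultured, per the labels. Not given in the sources used here are the mouse strain and age, the length of treatment, the sort markers, and what set a reprogrammed cell apart from another hepatocyte. Whether the 3 libraries of a group stand for 3 animals is not stated either, so every p-value speaks of the spread between libraries alone, which may be technical.

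Hepatocytes and the biliary epithelial cells that line the bile ducts arise from a common progenitor in the fetal liver. In livers with injured bile ducts, hepatocytes can switch on biliary genes, a response known as biliary reprogramming that depends on Notch and on YAP, the coactivator held in check by the Hippo pathway. Hepatocyte identity is kept by factors such as HNF4A and the C/EBP proteins, and biliary identity by factors such as SOX9.

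Levels are nuclear RPM: a region's reads, scaled so that the regions outside the mitochondrial genome sum to 1000000 in each library. A gene's level is the sum over the regions in its body or within 50 kb where it is the nearest protein-coding gene; it is accessibility, not expression. Changes are reprogrammed cells minus DDC hepatocytes in log2(nuclear RPM + 1) ± SE, tested with limma over all genes or all regions, with n = 3 libraries per group. "Called" means an adjusted p (Benjamini-Hochberg) under 0.05, and "rose" or "fell" is written of called features only. Because 1 is added before the logarithm, the change of a feature with few reads is understated. In bulk cells, fewer cells of a type and less accessible chromatin per cell cannot be told apart.

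Reprogrammed libraries held 4756891 to 9829886 nuclear reads and DDC hepatocyte libraries 1191409 to 2342643. Mitochondrial reads made up 9.24 ± 5.14% of reads in regions in reprogrammed cells (mean ± SD, n = 3), against 34.1 ± 7.24% for the 3 libraries of DDC hepatocytes. Regions without a read made up 1.71% to 4.12% in reprogrammed libraries and 17.6% to 28.2% in DDC hepatocyte libraries. Depth and mitochondrial share thus both moved with the groups compared, and their part in the results was tested only through the scalings and the thinning to equal depth given under the processing alternatives.

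All 5 genes taken here as markers of the reprogrammed state changed. Whether any of them served to sort the cells is not given in the sources used here. Albumin (Alb), the main plasma protein made by hepatocytes, had 83.3, 61.3 and 127 RPM in the reprogrammed libraries and 608, 930 and 540 RPM in the DDC hepatocyte libraries. Every reprogrammed library lay far below every hepatocyte library, and Alb fell by 2.94 ± 0.23 (7.69-fold, limma adjusted p = 2.39e-06). Krt19, the keratin that marks bile ducts, had 55.2, 43.2 and 46.5 RPM in reprogrammed cells and 5.55, 6.70 and 9.23 RPM in DDC hepatocytes. It rose by 2.61 ± 0.28 (adjusted p = 1.13e-05), with no overlap between the groups. Epcam, an adhesion molecule of biliary epithelium, had 141, 130 and 107 RPM in reprogrammed cells and 28.2, 26.8 and 27.7 RPM in DDC hepatocytes, and rose by 2.14 ± 0.19 (adjusted p = 3.64e-06). The hepatocyte libraries were close together here and the reprogrammed libraries all several times higher.

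Amotl1 encodes an angiomotin-like protein that binds YAP. It had 120, 81.4 and 82.0 RPM in reprogrammed cells and 11.95, 6.22 and 10.1 RPM in DDC hepatocytes, a rise of 3.21 ± 0.27 (9.27-fold, adjusted p = 2.83e-06), the largest among the markers. Sox9, the biliary and progenitor transcription factor, changed least: it had 165, 139 and 171 RPM in reprogrammed cells and 125, 78.1 and 52.0 RPM in DDC hepatocytes. Its groups did not overlap, but the highest hepatocyte library came close to the lowest reprogrammed one, and the rise was 0.97 ± 0.24 (adjusted p = 0.00600). Spp1, the gene of the secreted duct protein osteopontin, had 101, 87.0 and 118 RPM in reprogrammed cells and 39.7, 25.9 and 31.9 RPM in DDC hepatocytes, and rose by 1.63 ± 0.21 (adjusted p = 4.41e-05). Summed by gene, the markers thus went down for the hepatocyte gene and up for Amotl1 and the biliary genes. Region by region Sox9 was mixed, with 2 of its 6 tested regions higher and 1 lower. Because the sort markers are not given, these directions are no test of the label of the cells.

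**Figure D1:**
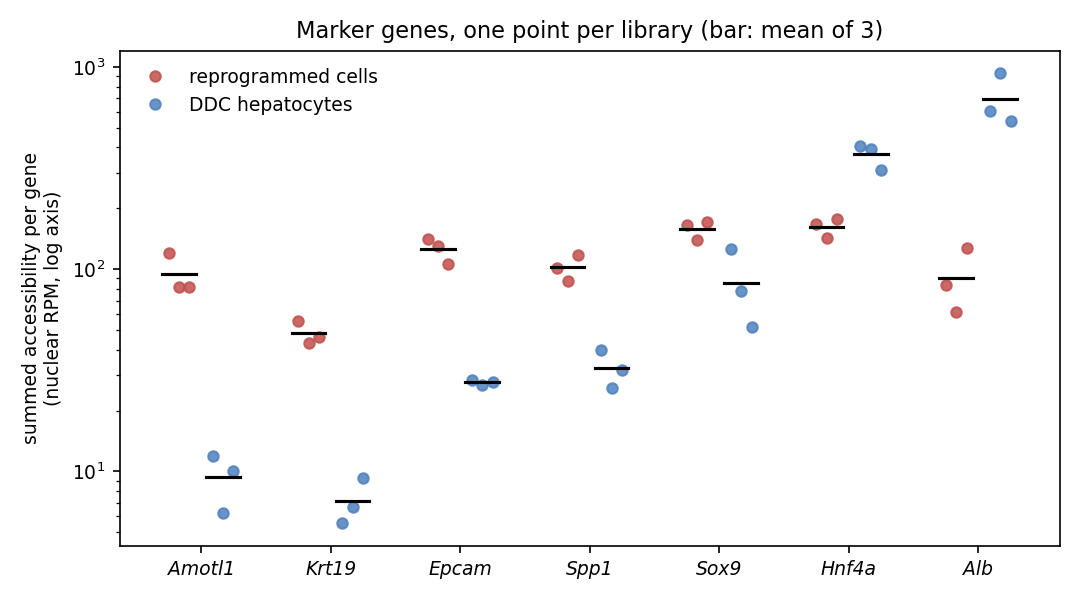
Nuclear RPM per library of the marker genes in reprogrammed cells and DDC hepatocytes, on a log axis, with each point 1 library and each bar the mean of 3. Alb and Hnf4a lie lower in all 3 reprogrammed libraries, and Krt19, Epcam, Sox9, Spp1 and Amotl1 lie higher; levels are not divided by region length, so heights are compared within a gene.

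Over the whole genome, 4390 of 16125 genes tested were called (27.2%). Of these, 2591 rose in reprogrammed cells (16.1% of genes tested) and 1799 fell (11.2%). The typical called change was about the same size in both directions, with a median of 1.17 among the genes that rose and −1.11 among those that fell. At least 4-fold changes were seen in 282 genes that rose and 207 that fell. All 3 reprogrammed libraries lay above all 3 hepatocyte libraries in 4071 genes (25.2%) and below them in 2647 (16.4%). Without reprogrammed library 1 the calls numbered 2432, and without reprogrammed library 2 they numbered 2801.

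The share of calls that rose depended on the scaling. It was 59.0% with nuclear RPM, 69.0% with TMM factors, 74.3% with median-of-ratios factors and 88.8% with the deposited scaling, which counts mitochondrial reads in the total. With edgeR on the recovered reads, which also used TMM factors but computed them on gene sums rather than on regions, it was 48.5%. The median change over all genes was 0.11, and it was 0.22, 0.29, 0.55 and 0.01 under those 4 alternatives in the same order. Each change below was tested against 0, not against the median of 0.11, and is to be set beside that median.

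**Figure D2:**
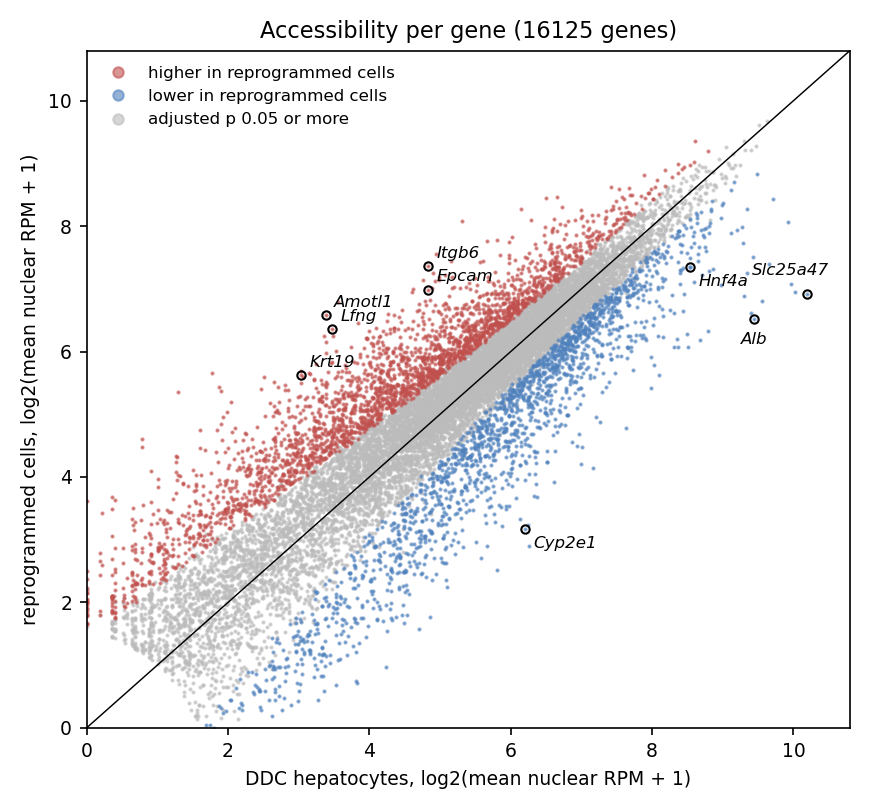
Mean accessibility of 16125 genes in reprogrammed cells (vertical axis) against DDC hepatocytes (horizontal axis), both as log2(mean nuclear RPM + 1), with the line of equal levels and 1 point per gene. The 2591 genes called higher in reprogrammed cells are red and the 1799 called lower are blue; Amotl1, Lfng, Epcam, Itgb6 and Krt19 stand above the line, and Alb, Slc25a47, Cyp2e1 and Hnf4a below it.

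Secreted liver proteins lost accessibility as a group. The members of this and the later lists were chosen with earlier results of these data known, so counts by list describe and do not test. Of 24 plasma protein genes tested, out of 28 in the list, 21 fell and 0 rose, and the median change was −1.53, beside 0.11 over all genes. Antithrombin (Serpinc1), the inhibitor of clotting proteases, had 20.3, 16.9 and 27.5 RPM in reprogrammed cells and 124, 142 and 99.9 RPM in DDC hepatocytes, and fell by 2.46 ± 0.22 (adjusted p = 3.64e-06). Ahsg, which encodes fetuin-A, had 138, 123 and 242 RPM in reprogrammed cells and 611, 959 and 841 RPM in DDC hepatocytes, and fell by 2.30 ± 0.22 (adjusted p = 4.24e-06). Fgg, the gamma chain of fibrinogen, had 88.1, 89.8 and 97.8 RPM in reprogrammed cells and 258, 276 and 248 RPM in DDC hepatocytes, and fell by 1.49 ± 0.15. In these 3 genes no reprogrammed library reached the lowest hepatocyte library. C3, Itih3 and Itih4 did not pass the test, with changes of −0.69, −0.41 and 0.13.

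The promoters of Alb and Ahsg are printed because both lie inside regions that fell, by 3.12 ± 0.22 and 2.35 ± 0.20, and because both hold letters of liver factor motifs. Each window runs from 250 bases before to 50 after the RefSeq start (GRCm38.p6), 5′ to 3′ on the gene's strand. In Alb (chr5:90460620-90460919, plus strand) the capitals mark matches to FOXA (TGTTTNC) and C/EBP (TTGCNNAA), starting 128 and 94 bases before the start site. In Ahsg (chr16:22891765-22892064, plus strand) they mark FOXA and C/EBP matches starting 79 and 32 bases before it. Not every such window holds a match: those of Pck1 and Cyp2e1, also in regions that fell, hold none of the 6 motifs searched, and that of Spp1, in a region that rose, holds a FOXA match.
Alb: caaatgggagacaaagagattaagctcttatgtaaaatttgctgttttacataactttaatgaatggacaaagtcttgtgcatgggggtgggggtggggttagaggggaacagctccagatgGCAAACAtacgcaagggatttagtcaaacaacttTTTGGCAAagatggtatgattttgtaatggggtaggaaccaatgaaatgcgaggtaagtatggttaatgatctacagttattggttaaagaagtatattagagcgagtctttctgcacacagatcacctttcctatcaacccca
Ahsg: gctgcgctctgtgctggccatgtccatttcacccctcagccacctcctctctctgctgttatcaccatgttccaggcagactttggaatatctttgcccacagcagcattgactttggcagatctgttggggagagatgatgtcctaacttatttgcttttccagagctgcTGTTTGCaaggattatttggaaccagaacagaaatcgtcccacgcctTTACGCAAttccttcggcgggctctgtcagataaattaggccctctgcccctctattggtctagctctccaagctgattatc

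Metabolic genes of the hepatocyte fell to a similar degree. Of 27 tested, out of 28 in the list, 22 fell and 0 rose, with a median of −1.73. Pck1, which controls gluconeogenesis, had 90.5, 74.2 and 167 RPM in reprogrammed cells and 582, 985 and 677 RPM in DDC hepatocytes, and fell by 2.80 ± 0.24 (adjusted p = 3.57e-06). Its level was several times lower in every reprogrammed library than in any hepatocyte library. Ass1, a urea cycle enzyme, had 71.5, 54.1 and 91.7 RPM in reprogrammed cells and 300, 404 and 271 RPM in DDC hepatocytes (−2.16 ± 0.20). The urea cycle gene Cps1 fell along its length, with 23 of its 28 tested regions lower and 0 higher. Otc, Glul, Cpt1a, Ces3a and Cyp4a14 had changes of −0.54, −0.46, −0.58, −1.0 and −1.30 and did not pass the test.

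Bile acid handling fell as well: 14 of 19 genes tested, out of 20, were lower and 0 higher, with a median of −1.41. When only regions within 1 kb of a gene end were used, 7 were lower. Cyp7a1, the rate-limiting enzyme of bile acid synthesis, had 19.7, 16.2 and 28.0 RPM in reprogrammed cells and 121, 160 and 101 RPM in DDC hepatocytes, and fell by 2.53 ± 0.24 (adjusted p = 3.82e-06). The bile acid-CoA ligase Slc27a5 had 5.15, 5.39 and 8.83 RPM in reprogrammed cells and 46.1, 49.8 and 53.7 RPM in DDC hepatocytes, and fell by 2.80 ± 0.29. Neither gene showed overlap between the groups. Uptake and export transporters were among the genes that fell, with Slco1b2 at −2.61 ± 0.30, Abcc2 at −2.29 ± 0.30, Slc10a1 at −1.41 ± 0.27 and Abcb11 at −0.91 ± 0.25. With gene-end regions alone Slco1b2 was at −1.31 and Abcc2 at −0.75, and limma called neither (adjusted p = 0.0770 and 0.147). The basolateral exporters Abcc3 (−0.02 ± 0.19) and Abcc4 (−0.09 ± 0.14), the bile acid hydroxylase Cyp7b1 (0.22 ± 0.23) and Fgfr4 (0.16 ± 0.17), the receptor of the ileal hormone FGF15, did not pass the test.

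The reprogrammed libraries differed among themselves in these lists. Summed over the tested plasma protein genes, the level was 1647, 1344 and 2596 RPM in reprogrammed cells and 5172, 6117 and 7306 RPM in DDC hepatocytes. Summed over the metabolic genes it was 1550, 1386 and 2063 RPM in reprogrammed cells and 5107, 7972 and 6475 RPM in DDC hepatocytes. Reprogrammed library 3 was the highest of its group in both sums, and it also had the highest mitochondrial share of the 3, at 14.8% beside 8.22% and 4.69%. The part of that share in the sums was not tested.

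Transcription factors of the hepatocyte had a smaller median change than the 3 lists above. Of 20 tested, 11 fell and 1 rose, with a median of −0.50. The count of 11 was 7 with TMM factors, 5 with median-of-ratios factors and 4 with the deposited scaling. It was 5 without reprogrammed library 1, and 6 without reprogrammed library 2 or without DDC hepatocyte library 2. The xenobiotic receptors led the list: Nr1i3 (CAR) had 1.75, 1.63 and 3.36 RPM in reprogrammed cells and 9.39, 26.3 and 15.9 RPM in DDC hepatocytes, and fell by 2.42 ± 0.42, while Nr1i2 (PXR) fell by 1.47 ± 0.20. With gene-end regions alone Nr1i2 was at −0.67 and was not called by limma (adjusted p = 0.109). Rxra, their shared dimer partner, fell by 1.11 ± 0.15, with 11 of 31 tested regions lower and 0 higher. The pioneer factors Foxa1 (−0.12 ± 0.14), Foxa2 (−0.09 ± 0.14) and Foxa3 (−0.06 ± 0.17) had overlapping groups and did not pass the test, nor did Prox1, Onecut1, Onecut2 and Tbx3. Atf5 was the 1 member that rose, by 0.89 ± 0.19.

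Hnf4a, the nuclear receptor at the head of the hepatocyte program, had 167, 142 and 178 RPM in reprogrammed cells and 406, 394 and 310 RPM in DDC hepatocytes. The groups lay well apart, and the gene fell by 1.18 ± 0.16 (adjusted p = 5.51e-05). Of its 19 tested regions 9 fell and 0 rose. Its start sites gave different calls. The upstream start, known as P2, lies 40.298 kb before the downstream start, P1. The region over the upstream start (chr2:163506168-163508254) had 25.5, 22.8 and 23.8 RPM in reprogrammed cells and 21.8, 17.7 and 22.7 RPM in DDC hepatocytes, with a change of 0.21 ± 0.27 (adjusted p = 0.587), and the lowest reprogrammed and the highest hepatocyte library nearly met. The region over the downstream start (chr2:163546546-163551955) had 28.8, 23.8 and 28.8 RPM in reprogrammed cells and 62.8, 55.5 and 43.7 RPM in DDC hepatocytes, and fell by 0.96 ± 0.24 (adjusted p = 0.00461). The difference between these 2 changes was not tested. The lowest p of the locus lay between the starts, at chr2:163537897-163542273, with 25.1, 21.4 and 30.7 RPM in reprogrammed cells and 108, 108 and 75.5 RPM in DDC hepatocytes (−1.87 ± 0.23), and limma did not call it with all 15 libraries in the fit (adjusted p = 0.0534).

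The windows at both Hnf4a starts are printed because the region over the downstream start was called and the region over the upstream start was not. Both are on the plus strand, at chr2:163506607-163506906 for the upstream start and chr2:163546905-163547204 for the downstream one. The capitals in the upstream window mark a FOXA match that starts 238 bases before the start site, and the downstream window holds none of the 6 motifs searched.
Hnf4a upstream start: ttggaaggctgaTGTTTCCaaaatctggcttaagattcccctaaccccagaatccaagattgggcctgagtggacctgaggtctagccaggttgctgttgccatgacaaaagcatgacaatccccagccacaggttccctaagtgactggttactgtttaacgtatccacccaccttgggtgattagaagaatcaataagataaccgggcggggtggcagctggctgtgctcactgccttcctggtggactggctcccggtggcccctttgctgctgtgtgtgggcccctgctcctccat
Hnf4a downstream start: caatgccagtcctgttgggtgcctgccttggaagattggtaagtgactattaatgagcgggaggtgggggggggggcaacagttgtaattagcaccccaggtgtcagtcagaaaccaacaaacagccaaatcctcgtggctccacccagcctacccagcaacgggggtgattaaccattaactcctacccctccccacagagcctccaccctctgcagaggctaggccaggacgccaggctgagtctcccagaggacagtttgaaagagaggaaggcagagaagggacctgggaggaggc

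**Figure D3:**
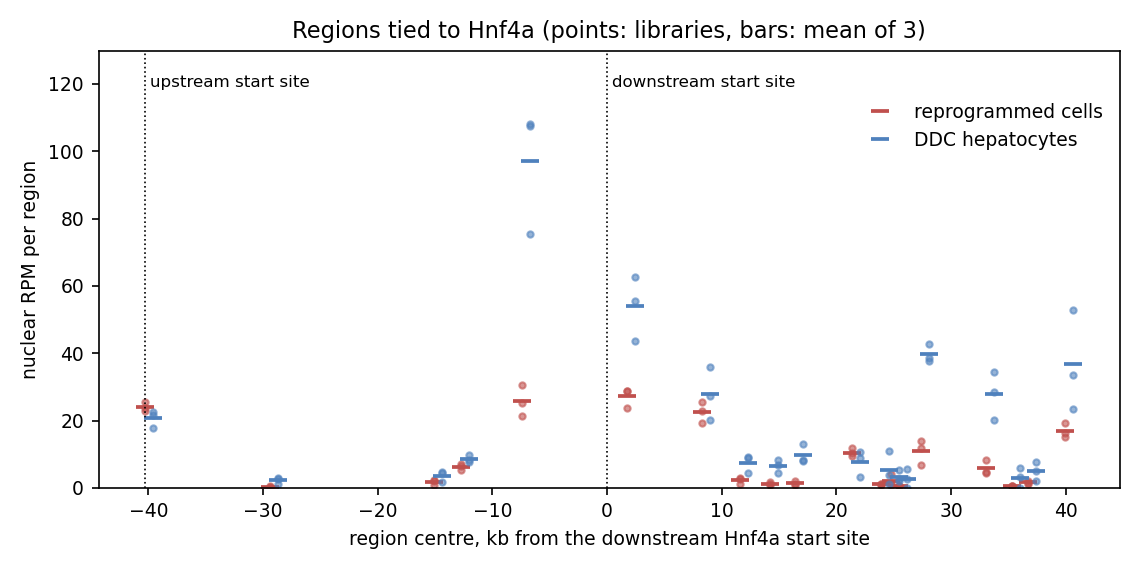
Nuclear RPM of the 19 tested regions tied to Hnf4a, placed by the distance of their centre from the downstream start in kb (reprogrammed cells drawn slightly left of DDC hepatocytes), with points for libraries and bars for the mean of 3. The points of both groups lie close together at the upstream start, while the region centred at −7.07 kb and 8 others lie lower in reprogrammed cells.

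Biliary and progenitor genes gained accessibility. Of 37 tested, out of 38, 26 rose and 1 fell, with a median of 1.03. In 31 of them every reprogrammed library lay above every hepatocyte library. Grhl2, a factor that builds epithelial junctions, had 62.9, 45.3 and 54.2 RPM in reprogrammed cells and 12.8, 10.1 and 11.8 RPM in DDC hepatocytes, and rose by 2.13 ± 0.25 (adjusted p = 2.24e-05). Foxj1, the regulator of motile cilia, had 170, 144 and 120 RPM in reprogrammed cells and 41.4, 30.6 and 20.1 RPM in DDC hepatocytes, and rose by 2.24 ± 0.24 (adjusted p = 8.35e-06). Ehf, an ETS factor of epithelia, had 161, 118 and 128 RPM in reprogrammed cells and 45.7, 44.1 and 35.3 RPM in DDC hepatocytes, and rose by 1.68 ± 0.19. For these 3 regulators the lowest reprogrammed library was over 2-fold the highest hepatocyte library.

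The chloride channel Cftr rose by 2.17 ± 0.32, and the surface protein Cd24a by 2.09 ± 0.28. Tight junction genes were split: Cldn4 rose by 2.19 ± 0.29 and Cldn7 by 1.78 ± 0.32, while Cldn3 (0.30 ± 0.18) and Cldn6 (0.52 ± 0.25) did not pass the test. Keratins were split too, with Krt7 up by 1.90 ± 0.33, Krt8 up by 0.55 ± 0.16, and Krt18 at 0.22 ± 0.23. Sctr, the secretin receptor (−0.32 ± 0.19), the water channel Aqp1 (−0.12 ± 0.28) and Pkhd1 (−0.30 ± 0.19), whose product sits on the cilium, did not pass the test. Prom1 fell by 0.71 ± 0.21, and it did not pass the test under several alternatives, the deposited and the median-of-ratios scaling among them.

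The same direction held in genes chosen as belonging to neither liver lineage. Of 12 neuronal genes taken as a control list, 7 rose and 0 fell, with a median of 0.87, and 5 rose after thinning to equal depth. Their summed level was 497 to 555 RPM in reprogrammed cells and 323 to 459 RPM in DDC hepatocytes. The count of 7 was 2 with all 15 libraries in the fit, 3 without reprogrammed library 1, 4 without reprogrammed library 2, 4 with gene-end regions alone and 9 with the deposited scaling. Map2, a microtubule protein of neurons, had 86.0, 69.7 and 85.8 RPM in reprogrammed cells and 17.5, 20.1 and 27.7 RPM in DDC hepatocytes (1.86 ± 0.23). It averaged 107 RPM in DDC biliary cells, 120 RPM in untreated biliary cells and 43.6 RPM in untreated hepatocytes. Between the untreated groups, 2 of the 12 genes were called higher in biliary cells, Map2 among them, and 3 lower. Some members thus differed between the 2 lineages, in both directions, and the list median there was 0.42, beside 0.31 over all genes. Whether such differences have a part in the 7 rises was not tested. A rise in a list below is to be set beside 7 of 12 in the neuronal list as well as beside 16.1% of all genes.

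**Figure D4:**
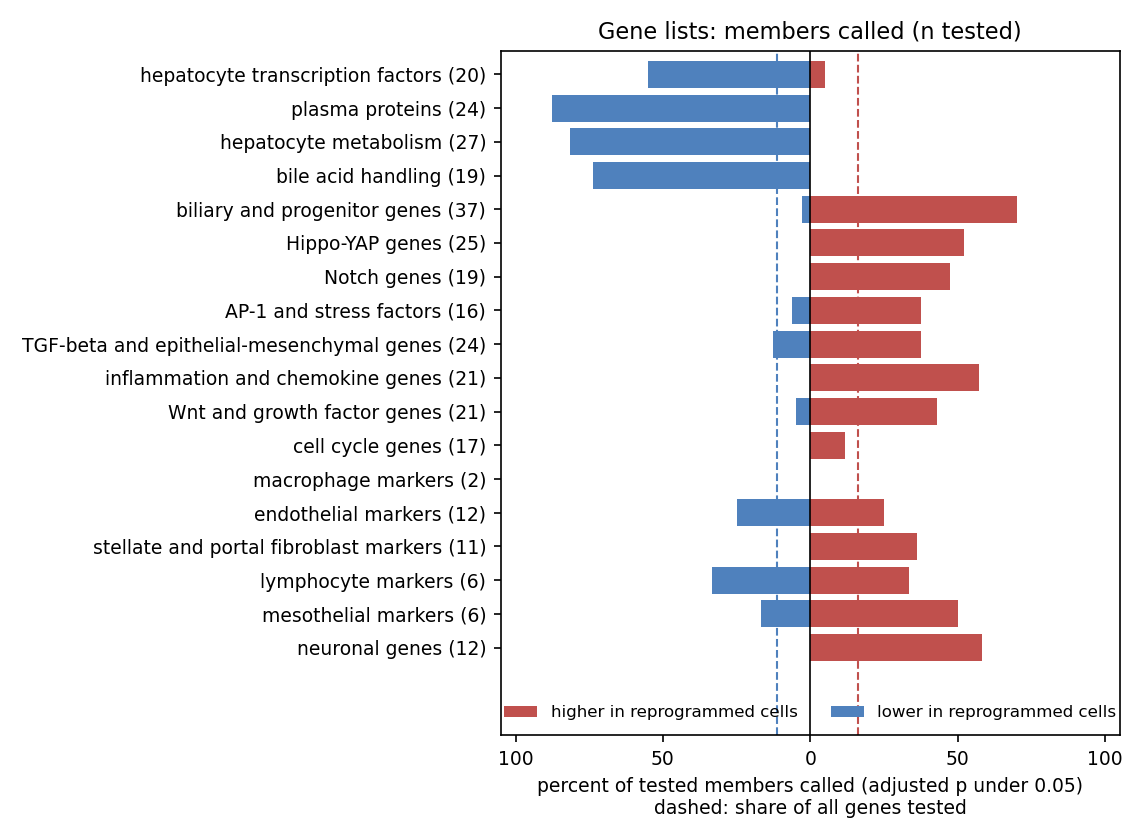
Percent of tested members called higher (red, right of 0) or lower (blue, left of 0) in reprogrammed cells than in DDC hepatocytes for 18 gene lists, with the number tested in brackets. Dashed lines give the shares over all genes, 16.1% higher and 11.2% lower; the 4 hepatocyte lists extend to the left, and the biliary, Hippo-YAP and inflammation lists to the right, as does the neuronal list.

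Genes around Hippo and YAP rose in 13 of 25 tested, out of 26, and 0 fell, with a median of 0.68. With all 15 libraries in the fit the count was 8, and with the deposited scaling 20. Among the targets, Ccn2, a matricellular protein, had 150, 138 and 133 RPM in reprogrammed cells and 17.9, 23.0 and 36.9 RPM in DDC hepatocytes, and rose by 2.45 ± 0.23 (adjusted p = 4.24e-06). Ankrd1, a widely used YAP reporter gene, had 178, 113 and 161 RPM in reprogrammed cells and 42.7, 14.4 and 29.4 RPM in DDC hepatocytes, and rose by 2.45 ± 0.30 (adjusted p = 2.55e-05), a call it lost with all 15 libraries in the limma fit (adjusted p = 0.0658). For both, the lowest reprogrammed library was over 2-fold the highest hepatocyte library. Ccn1, another YAP target, had 482, 368 and 497 RPM in reprogrammed cells and 375, 326 and 469 RPM in DDC hepatocytes, and the groups overlapped (0.21 ± 0.16).

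Of the factors that YAP binds on DNA, Tead1 rose by 0.89 ± 0.17, Tead2 by 1.74 ± 0.36 and Tead3 by 0.98 ± 0.21, and Tead4 (0.33 ± 0.16) did not pass the test. Ptpn14, a phosphatase that restrains YAP, rose by 1.86 ± 0.19 with 10 of 16 regions higher. Yap1 itself (−0.20 ± 0.20), its paralog Wwtr1 (0.46 ± 0.17), and the upstream genes Nf2 (0.19 ± 0.20) and Lats2 (0.19 ± 0.21) did not pass the test. Amotl1 stood apart from its paralogs, with Amotl2 at 0.06 ± 0.13 and Amot at −0.33 ± 0.18. Its strongest region was 12100 bp from the gene, at chr9:14675074-14677967, with 75.1, 52.2 and 57.0 RPM in reprogrammed cells and 5.12, 0.958 and 1.68 RPM in DDC hepatocytes (4.28 ± 0.39).

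The Ankrd1 promoter is printed because it lies in a region that rose by 2.65 ± 0.29 and holds matches to GGAATG, the core of the TEAD motif. The window is chr19:36119795-36120094 (minus strand), and the capitals mark the 2 matches, which start 210 and 123 bases before the start site. The windows of Amotl1, Epcam, Jag2 and Lfng, also in regions that rose, hold none of the 6 motifs searched.
Ankrd1: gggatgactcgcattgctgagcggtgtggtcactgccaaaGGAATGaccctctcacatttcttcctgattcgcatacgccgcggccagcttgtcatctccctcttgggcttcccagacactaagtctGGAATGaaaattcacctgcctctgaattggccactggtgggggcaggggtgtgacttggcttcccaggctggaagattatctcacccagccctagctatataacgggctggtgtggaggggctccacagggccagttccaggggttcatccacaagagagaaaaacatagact

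Notch pathway genes rose in 9 of 19 and fell in 0, with a median of 0.45. The count of 9 was 6 without reprogrammed library 1 and 15 with the deposited scaling. Lfng, a glycosyltransferase that tunes which ligands Notch answers to, had 93.3, 80.8 and 69.8 RPM in reprogrammed cells and 11.1, 9.10 and 10.1 RPM in DDC hepatocytes, and rose by 2.89 ± 0.24 (adjusted p = 2.72e-06). The ligand Jag2 had 44.7, 34.0 and 28.8 RPM in reprogrammed cells and 5.12, 6.70 and 5.04 RPM in DDC hepatocytes, and rose by 2.46 ± 0.31 (adjusted p = 3.12e-05). The groups were far apart in both genes. Targets were called too, with Heyl up by 1.42 ± 0.23, Nrarp by 0.98 ± 0.20 and Hes1 by 0.62 ± 0.14. The receptors Notch1 (−0.30 ± 0.19), Notch2 (0.23 ± 0.16) and Notch3 (−0.30 ± 0.25), and Jag1 (−0.17 ± 0.17), the ligand mutated in Alagille syndrome in humans, did not pass the test.

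AP-1 and stress factors were divided. Of 16 tested, out of 18, 6 rose and 1 fell, with a median of 0.37. The 6 were 2 without reprogrammed library 1, 3 without DDC hepatocyte library 2 and 2 with all 15 libraries in the fit, and they were 9 with median-of-ratios factors and 12 with the deposited scaling. Jdp2, an AP-1 repressor, had 109, 90.1 and 89.8 RPM in reprogrammed cells and 37.6, 39.7 and 37.8 RPM in DDC hepatocytes, and rose by 1.30 ± 0.18. Fosl2 rose by 0.59 ± 0.15, Fosb by 0.68 ± 0.18 and Maff by 0.71 ± 0.19. Jdp2 and Maff lost the call with all 15 libraries in the limma fit (adjusted p = 0.0665 and 0.184), and Fosl2, Fosb and Maff each lost it with some libraries left out. Jun (−0.37 ± 0.15), Fos (0.38 ± 0.15), Jund (−0.31 ± 0.18) and Egr1 (−0.19 ± 0.14) did not pass the test. Bach1 fell by 0.42 ± 0.15, but its change was 0.05 with the deposited scaling and 0.25 with gene-end regions alone.

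In the TGF-beta and epithelial-mesenchymal list, 9 of 24 rose and 3 fell, with a median of 0.31, and 15 rose with the deposited scaling. Itgb6, the integrin subunit that activates latent TGF-beta on epithelia, had 179, 109 and 202 RPM in reprogrammed cells and 30.7, 30.2 and 21.8 RPM in DDC hepatocytes, and rose by 2.49 ± 0.23 (adjusted p = 3.64e-06). Its partner Itgav rose by 0.66 ± 0.15, the latent binding protein Ltbp2 by 1.73 ± 0.20 and the signal transducer Smad3 by 0.82 ± 0.18. The receptor Tgfbr2 fell instead: it had 96.1, 88.5 and 101 RPM in reprogrammed cells and 198, 200 and 161 RPM in DDC hepatocytes (−0.96 ± 0.16). Tgfb1 fell by 1.30 ± 0.30 and fibronectin (Fn1), which hepatocytes secrete, by 1.11 ± 0.22. Of the mesenchymal genes, Vim rose by 0.97 ± 0.21, Zeb2 by 1.04 ± 0.18 and Col1a1 by 1.55 ± 0.25 (0.83 and not called with gene-end regions alone), while Snai1 (−0.20 ± 0.20), Snai2 (−0.60 ± 0.23), Zeb1 (0.19 ± 0.17) and Cdh2 (−0.15 ± 0.14) did not pass the test.

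Inflammation and chemokine genes rose in 12 of 21 tested, out of 24, and fell in 0, with a median of 0.73, and 19 rose with the deposited scaling. Csf2, a myeloid growth factor, had 77.9, 69.0 and 74.2 RPM in reprogrammed cells and 23.5, 13.4 and 6.71 RPM in DDC hepatocytes, and rose by 2.42 ± 0.32 (adjusted p = 5.95e-05). Cxcl5, a neutrophil chemokine, had 39.2, 30.8 and 43.7 RPM in reprogrammed cells and 8.54, 5.27 and 10.9 RPM in DDC hepatocytes, and rose by 2.11 ± 0.31. Each was higher in all 3 reprogrammed libraries. Lif, a cytokine of the interleukin-6 family, rose by 1.33 ± 0.22, the monocyte chemokine Ccl2 by 1.02 ± 0.19, and the adhesion molecule Vcam1 by 1.15 ± 0.25. Cxcl1 (0.04 ± 0.16), Il33 (0.01 ± 0.20) and Tnfaip3 (0.27 ± 0.17) did not pass the test.

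Wnt and growth factor genes rose in 9 of 21 tested, out of 22, and 1 fell, with a median of 0.32. With all 15 libraries in the fit, 5 rose. Fgfr1, a fibroblast growth factor receptor, had 179, 177 and 155 RPM in reprogrammed cells and 41.8, 42.1 and 55.4 RPM in DDC hepatocytes, and rose by 1.86 ± 0.18 (adjusted p = 4.27e-06). The ligand Wnt7b had 303, 287 and 234 RPM in reprogrammed cells and 109, 95.3 and 86.5 RPM in DDC hepatocytes, and rose by 1.49 ± 0.16. Both had groups far apart. Wnt4 rose by 1.69 ± 0.21 and the EGF-family ligand Hbegf by 1.27 ± 0.18. Egfr (−0.34 ± 0.20), Met (−0.32 ± 0.15), the receptor of hepatocyte growth factor, and the stem cell receptor Lgr5 (−0.42 ± 0.21) did not pass the test, and Fzd7 fell by 0.47 ± 0.16 but lost the call under 10 of 18 alternatives, the 3 other scalings among them, and was at −0.01 with the deposited scaling. Cell cycle genes mostly did not pass: 2 of 17 tested, out of 18, rose and 0 fell, with a median of 0.29, and 11 rose with the deposited scaling. The 2 were Ccnd2 (1.30 ± 0.20) and Ccne1 (0.49 ± 0.16), and Ccne1 was at −0.03 with gene-end regions alone.

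Markers of other liver cells were measured for the same libraries. Macrophage markers had 2 of 10 genes tested, Csf1r and Marco, with changes of −0.02 ± 0.31 and 0.06 ± 0.39, and limma called neither; their summed level was 41.9 to 62.9 RPM in reprogrammed cells and 32.1 to 89.8 RPM in DDC hepatocytes. Endothelial markers had 3 of 12 higher and 3 lower, with sums of 258 to 316 RPM in reprogrammed cells and 297 to 319 RPM in DDC hepatocytes. The sinusoidal markers Stab2 and Lyve1 fell by 0.84 ± 0.20 and 1.46 ± 0.39, and Pecam1 rose by 0.93 ± 0.23. The 3 that rose were 0 without reprogrammed library 1, 1 without reprogrammed library 2 and 1 without DDC hepatocyte library 1, and 6 with the deposited scaling.

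Stellate and portal fibroblast markers rose in 4 of 11 tested, out of 12, and fell in 0, with sums of 275 to 308 RPM in reprogrammed cells and 182 to 227 RPM in DDC hepatocytes. These were Ngfr (1.55 ± 0.34), Pdgfrb (2.35 ± 0.65), Lhx2 (0.71 ± 0.19) and Des (1.0 ± 0.31), and 1 was called without reprogrammed library 1 and 0 in the limma fit with all 15 libraries, beside 8 with the deposited scaling. Mesothelial markers had 3 of 6 tested, out of 8, higher and 1 lower, with sums of 255 to 309 RPM in reprogrammed cells and 217 to 250 RPM in DDC hepatocytes. Of those, Wt1 rose by 0.97 ± 0.21 and Lrrn4 fell by 1.94 ± 0.20. Lymphocyte markers had 6 of 12 tested, of which 2 rose and 2 fell, with sums of 44.1 to 49.4 RPM in reprogrammed cells and 57.2 to 78.1 RPM in DDC hepatocytes. Cd4 fell by 1.85 ± 0.35, Cd8a had no read in any DDC hepatocyte library, and neither rise was called after thinning to equal depth. The part of such cells in the higher mesenchymal and inflammation genes was not tested.

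Among genes of mean 10 RPM or more whose groups did not overlap, the 8 that rose most were Lce1m, 1700013G24Rik, Krt39, Gm52140, 1700042G07Rik, Fam124b, Foxs1 and H2-M2, with changes of 3.51 to 4.31. Lce1m, a gene of the late cornified envelope of skin, had 39.8, 34.1 and 46.0 RPM in reprogrammed cells and 3.41, 0.958 and 0 RPM in DDC hepatocytes. Krt39, a keratin, had 27.1, 19.7 and 23.3 RPM in reprogrammed cells and 0.854, 0.479 and 0.839 RPM in DDC hepatocytes. Most of these genes had a single tested region, and none exceeded 7.18 RPM in a hepatocyte library. Among the 8 that fell most were Acad11, Slc25a47, Oxnad1, Cyp2d9, Dnaja3 and Cyp2e1, and the 8 had changes of −3.17 to −3.58. Slc25a47, a mitochondrial carrier of hepatocytes, had 99.6, 87.4 and 173 RPM in reprogrammed cells and 1143, 1191 and 1157 RPM in DDC hepatocytes, with the 3 hepatocyte libraries within a few percent of one another. Cyp2e1, the ethanol-inducible cytochrome P450, had 6.47, 4.17 and 13.2 RPM in reprogrammed cells and 77.7, 77.1 and 63.8 RPM in DDC hepatocytes. Krt39, H2-M2 and Cyp2d9 belong to multigene families, and reads that map to several members leave their levels uncertain.

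Counted region by region, 24249 of 75556 regions tested were called (32.1%), 12574 higher in reprogrammed cells (16.6%) and 11675 lower (15.5%). All 3 reprogrammed libraries lay above all 3 hepatocyte libraries in 17967 regions (23.8%) and below them in 15390 (20.4%). At least 2-fold changes made up 11588 of the regions that rose and 10899 of those that fell. Of regions within 1 kb of a gene end, 14.8% rose and 7.74% fell. Of regions inside gene bodies, 15.4% rose and 18.6% fell. Of regions over 50 kb from any protein-coding gene, 22.4% rose and 17.3% fell. Gene ends made up 17.7% of regions that rose and 9.996% of those that fell, beside 19.96% of all tested. The regions that rose had a median width of 1108.5 bp and those that fell 767 bp, beside 863 bp for all. The region count was 13312 without reprogrammed library 1 and 14154 without reprogrammed library 2, and the higher ones numbered 8318 without reprogrammed library 3. After thinning to equal depth, 8206 were higher and 8592 lower.

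Among called regions of mean 10 RPM or more, the largest rise was at chr9:71320872-71322519, 24629 bp from Aldh1a2, a retinoic acid-making enzyme. That region had 57.9, 51.9 and 36.4 RPM in reprogrammed cells and 4.27, 0 and 0 RPM in DDC hepatocytes (4.81 ± 0.51). A region 22997 bp from Litaf (chr16:11016118-11018770) had 41.4, 23.3 and 34.1 RPM in reprogrammed cells and 1.71, 0 and 0 RPM in DDC hepatocytes. Others lay inside Frmd4a (4.39 ± 0.44) and Tbc1d1 (4.37 ± 0.44), and 1 lay 80669 bp from the nearest gene on chromosome 18 (4.58 ± 0.42). Among the 5 largest falls, the Cyp2d9 end region (chr15:82456088-82459679) had 6.47, 1.73 and 3.99 RPM in reprogrammed cells and 63.6, 124 and 26.9 RPM in DDC hepatocytes (−3.71 ± 0.44). A region 37146 bp from Ppargc1b, a coactivator of mitochondrial genes, had 3.62, 1.42 and 5.68 RPM in reprogrammed cells and 56.3, 61.8 and 34.4 RPM in DDC hepatocytes (−3.58 ± 0.38). The other 3 falls lay inside Abi3bp and Acad11 and 3587 bp from Top1mt. The highest level that any of these rises or falls had in a library of its low group was 8.41 RPM, in the Acad11 region in reprogrammed library 3.

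The other libraries of the study give the scale of these changes. In the 12574 regions that rose, the median level was 8.62 RPM in reprogrammed cells, 11.0 RPM in DDC biliary cells and 1.55 RPM in DDC hepatocytes, with 5.59 RPM in untreated biliary cells and 2.75 RPM in untreated hepatocytes. In the 11675 that fell it was 2.50 RPM in reprogrammed cells, 1.62 RPM in DDC biliary cells and 11.8 RPM in DDC hepatocytes, with 2.26 RPM in untreated biliary cells and 12.3 RPM in untreated hepatocytes. Reprogrammed and DDC biliary cells are both set against the same hepatocyte libraries here, which chose the regions, so these medians are given without a test. For single genes the levels ran differently. Krt19 averaged 48.3 RPM in reprogrammed cells, 131 RPM in DDC biliary cells and 7.16 RPM in DDC hepatocytes. Hnf4a averaged 162 RPM in reprogrammed cells, 79.4 RPM in DDC biliary cells and 370 RPM in DDC hepatocytes. Alb averaged 90.6 RPM in reprogrammed cells, 72.8 RPM in DDC biliary cells and 693 RPM in DDC hepatocytes. Zeb2 and Vim averaged 155 and 78.9 RPM in reprogrammed cells, 88.4 and 45.6 RPM in DDC biliary cells, and 75.3 and 39.7 RPM in DDC hepatocytes. In the untreated groups Zeb2 averaged 101 RPM in biliary cells and 128 ± 60.4 RPM in hepatocytes (mean ± SD, n = 3). No test of reprogrammed against biliary cells was made.

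**Figure D5:**
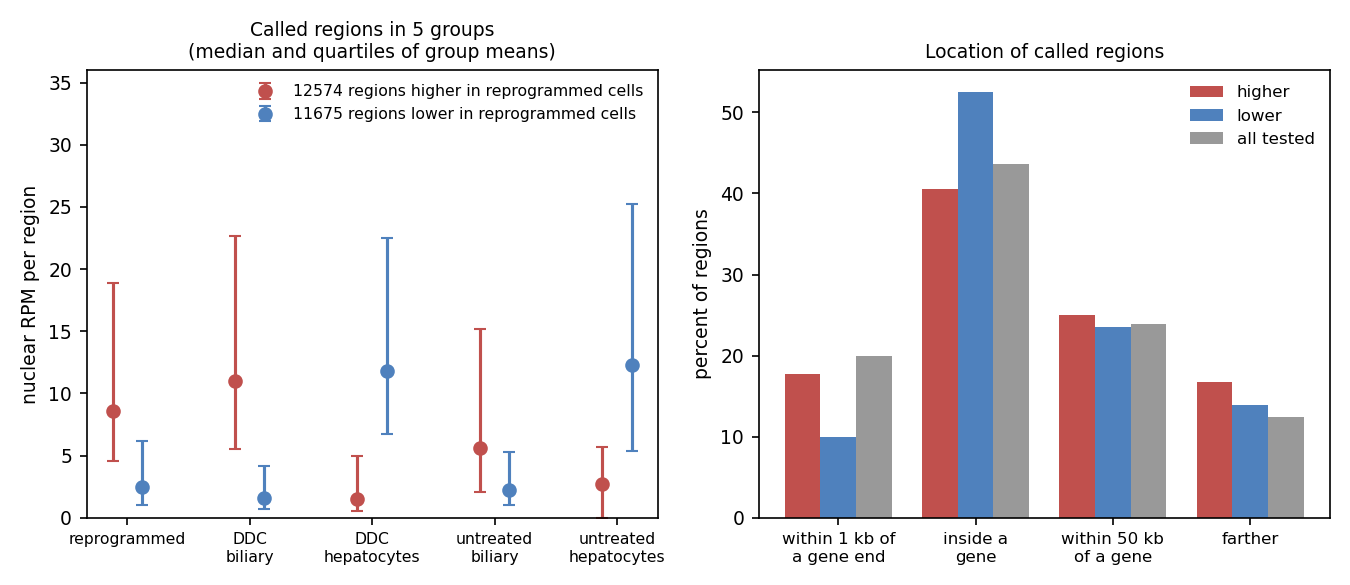
Left, levels in nuclear RPM by cell group of the regions that rose (red) and fell (blue) in reprogrammed cells against DDC hepatocytes, as median and quartiles over regions; median levels were 8.62 RPM in reprogrammed cells and 1.55 RPM in DDC hepatocytes for regions that rose, and 2.50 RPM in reprogrammed cells and 11.8 RPM in DDC hepatocytes for those that fell, and these groups chose the regions. Right, percent of the regions that rose, fell or were tested by place relative to genes, with gene ends at 17.7% of rising and 9.996% of falling regions.

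Untreated biliary cells and untreated hepatocytes share no library with the comparison. Between them 12571 of 71847 regions were called (17.5%), 8447 higher in biliary cells (11.8%) and 4124 lower (5.74%). Of the regions that rose in reprogrammed cells and were tested in both, 89.1% were higher in untreated biliary cells than in untreated hepatocytes, beside 58.5% of all regions. Of those that fell, 89.0% were lower in untreated biliary cells, beside 41.5% of all regions. All these shares are over the 65043 regions tested in both comparisons. There, 3147 rising regions were called in the same direction in both, 29.3% of 10736 reprogrammed calls and 42.9% of 7340 untreated calls. Falling regions called in both numbered 3064, 28.2% of 10859 reprogrammed calls and 75.2% of 4072 untreated calls. Calls in opposite directions numbered 14 and 26. Untreated hepatocyte libraries held 201705 to 605309 nuclear reads and untreated biliary libraries 2439831 to 4389653. Mitochondrial reads made up 76.6 ± 11.7% in untreated hepatocytes and 18.6 ± 4.33% in untreated biliary cells (mean ± SD, n = 3). Regions without a read averaged 52.2% and 11.8%. Depth and mitochondrial share thus moved with the hepatocyte side in both comparisons, and their part in the shared directions was not tested. The untreated calls were unstable: 58 regions were called with the replicate number as a block, and 6105 without untreated biliary library 2, beside 6604 without untreated biliary library 3.

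By gene, 2796 of 16019 were called between untreated biliary cells and untreated hepatocytes (17.5%), 1599 higher (9.98%) and 1197 lower (7.47%). This count was 1047, 259 and 277 without untreated biliary library 1, 2 and 3. Among the 15841 genes tested in both comparisons, 63.5% were higher and 36.5% lower in untreated biliary cells. Of those that rose in reprogrammed cells 92.1% were higher there, and of those that fell 91.8% were lower there. By list, the plasma protein genes had 20 of 24 lower in untreated biliary cells and the biliary list 19 of 37 higher. The inflammation list had 1 of 21 higher there, beside 12 of 21 in reprogrammed cells. Csf2 averaged 73.7 RPM in reprogrammed cells, 100 RPM in DDC biliary cells and 14.5 RPM in DDC hepatocytes. In the untreated groups it averaged 11.1 RPM in biliary cells and 12.2 RPM in hepatocytes. Whether the inflammation list differs between the comparisons was not tested.

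Promoter windows from RefSeq lay whole inside tested regions in 12198 of 21238 cases, 1858 of them in regions that rose and 551 in regions that fell. Matches to motifs of liver factors took a larger share of the windows in regions that fell. The C/EBP letters TTGCNNAA were in 16.5% of windows in falling regions and 5.65% of those in rising regions, beside 7.75% of all windows in tested regions. The FOXA letters TGTTTNC were in 21.1% of falling and 11.6% of rising windows, beside 14.0% of all. The HNF4 letters CAAAGTCCA were in 1.81% of falling and 0.108% of rising windows, beside 0.426% of all. Both strands were searched.

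Letters bound by TEAD, AP-1 and GRHL factors were likewise more frequent in falling than in rising windows. The TEAD letters GGAATG were in 15.6% of falling windows, 11.8% of rising ones and 11.7% of all. The AP-1 letters TGANTCA were in 8.35% of falling, 6.24% of rising and 4.94% of all windows. The GRHL letters AACNNGTT were in 5.63% of falling, 2.80% of rising and 3.29% of all windows. The sets differed in base composition, with a median GC content of 55.3% in falling windows, 64.3% in rising windows and 62.0% in all, and a median of 8, 22 and 22 CpG sites. Shares of matches move with such composition, and its part was not tested. A match is a run of letters and not a bound site, and most regions that changed lie outside these windows.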

How the data were processed

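The deposited table gives 93217 regions (179 to 48527 bp, median 706 bp) and 1 value per region and library. Per the submitters' processing notes, the tools were Bowtie2, MACS2, SAMtools and bedtools and the build mm10; not given in the sources used here are settings, versions, duplicate handling and the merging of regions. The authors name the unit TPM, but the deposited values are RPM, with no division by length. Of values above 0 and up to 100 reads, 100% were whole multiples of 1 read (tolerance 0.02 read). Larger values were rounded to whole reads without this check. In reprogrammed library 1 the step of 1 read is nearly a power of 10, which makes its pattern weaker evidence.

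Mitochondrial regions were dropped and each library was rescaled to 1000000 (nuclear RPM). Regions were tied to RefSeq protein-coding genes of the same build by body or, failing that, by the nearest gene within 50 kb (80462 regions, 86.3%, 16573 of 21887 genes); 2441 regions (2.62%) lay in several gene bodies and went to 1 gene. The main test was limma-trend on log2(nuclear RPM + 1) over the 6 libraries, for features of mean 1 or more, with Benjamini-Hochberg adjustment. Untreated biliary cells and hepatocytes were fitted the same way. Genes are named by rule: the markers; the 8 largest changes each way at mean 10 or more without overlap between groups; up to 4 members of lowest p per list in its main direction and 2 in the other; and the 5 called regions of largest change each way at mean 10 or more. Other list members were named after their values were seen, to show which members did not pass. The members and lists were chosen with earlier results of these data known. Some genes that met these rules are not reported here.

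Alternatives were other scalings (deposited, TMM, median-of-ratios), pseudocounts and filters, all 15 libraries in 1 fit, edgeR's quasi-likelihood test on nuclear reads recovered from the steps (4464 genes called), thinning to 1191409 reads, each library left out, a replicate block and gene-end regions alone. Scripts were tested on simulated data. No 2 libraries of a group were copies: chi-square values of their counts ran from 2.73 to 7.47 per degree of freedom. Promoter windows come from RefSeq (GRCm38.p6). Python 3.11.15 was used with pandas 2.3.3, numpy 2.4.6 and matplotlib 3.10.9, and R 4.3.3 with edgeR 4.0.16, limma 3.58.1 and the package data.table (1.17.8).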

Additional observations from a re-analysis of the deposited data

How the results depend on the processing

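In all, 1885 values of the genes and regions named by rule were recomputed under an alternative. Of these, 1795 kept their direction and side of the threshold, 86 kept their direction and lost the call, and 4 turned round. Those 4 were Bach1 with the deposited scaling (0.048) and with gene-end regions alone (0.25), Ccne1 with gene-end regions (−0.028) and Des with gene-end regions (−0.065). Alb, Krt19, Epcam, Sox9, Amotl1, Hnf4a and Spp1 kept their calls as genes under every alternative run. All genes and regions in this count were called in the main fit, and most were picked for low p or large change. Their stability is thus partly set by that choice. List members named outside the rules, such as Grhl2, Cftr and Tead1, are not in this count.

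Genes called in reprogrammed cells against DDC hepatocytes numbered 4390 (2591 higher, 1799 lower). With the deposited scaling they numbered 7585 (6739 and 846), with all 15 libraries in the fit 2361 (1295 and 1066), and with gene-end regions alone 2531, of which 750 were lower. Leaving out 1 library gave 2432 to 5391 (1287 to 3152 higher, 1145 to 2239 lower). Regions called numbered 24249 (12574 higher, 11675 lower). All 15 libraries gave 11232 (6440 and 4792), and a filter at mean 5 gave 14442 with 6631 higher, where fewer regions were tested. The deposited scaling gave 22374 higher and thinning gave 8206 higher. Leaving out 1 library gave 13312 to 27846 (5942 to 14388 higher, 6514 to 13458 lower). edgeR made 3955 of the same gene calls (90.1%), and thinning 3436 (78.3%). By region, edgeR made 22888 of the same calls (94.4%), and thinning 15982 (65.9%).

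Between untreated biliary cells and untreated hepatocytes, the deposited scaling gave 12763 genes (12686 higher, 77 lower) and 31500 regions (30616 and 884), beside 2796 genes and 12571 regions. A filter at mean 5 gave 7288 regions with 3161 higher, and a pseudocount of 5 gave 5051 higher. Leaving out 1 library gave 259 to 3463 genes (101 to 2224 higher, 158 to 1336 lower) and 6105 to 18534 regions (5216 to 13374 higher, 889 to 5160 lower).

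With the replicate number as a block, 5242 genes and 26616 regions were called in reprogrammed cells against DDC hepatocytes, and 2159 genes and 58 regions (29 higher, 29 lower) between the untreated groups. Deviations of same-numbered reprogrammed and DDC hepatocyte libraries from their group means correlated at 0.24, 0.03 and 0.23 over 13226 genes, and those of the untreated pairs at −0.02, −0.03 and 0.04 over 13077 genes. Libraries of different numbers correlated at −0.24 to 0.056 in the first comparison, with −0.24 and −0.22 between numbers 1 and 3. Reprogrammed library 2 correlated at 0.056 with DDC hepatocyte library 1 and at 0.032 with its own number. The numbers were not taken to pair the libraries because no label says what they mark. Whether some libraries were prepared together is not given in the labels either. The cause of the shifts above was not tested, except where fewer regions or libraries entered by construction. The shallower hepatocyte libraries, in which 17.6% to 28.2% of regions had no read, limit the precision of low levels.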

Other observations

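Many genes held regions that moved in opposite directions, which a gene's summed level hides. Of 11501 genes with at least 2 tested regions, 2037 (17.7%) had regions called higher and regions called lower in reprogrammed cells than in DDC hepatocytes. Nav2, a cytoskeletal gene picked after its values were seen as the one with the most regions in both directions, had 12 of 72 tested regions higher and 17 lower, while its summed level changed by 0.05 ± 0.14 (limma adjusted p = 0.820). Agap1 had 7 of 34 higher and 8 lower with a sum at 0.06 ± 0.14, and the circadian nuclear receptor gene Rora had 6 of 46 higher and 8 lower with a sum at −0.09 ± 0.16. Lpp, a focal adhesion gene, had 10 of 36 higher and 6 lower, with a sum at 0.09 ± 0.18. Among the factors of the hepatocyte list, Prox1 had 4 of 23 regions higher and 4 lower with a sum at −0.14 ± 0.19. The number of tested regions per gene, and so the room for both directions, was large in these genes, and its part was not tested.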
